A study of Arabidopsis thaliana with 15 samples.

Results

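How the lhp1 mutation combines with the ebs shl pair was measured in mRNA of whole seedlings of Arabidopsis thaliana (Col-0). The libraries were chosen by their genotype labels: 12 of the 15 libraries of the series enter the interaction, 3 of each genotype. These are wild type (WT), lhp1, ebs shl, in which 2 genes are mutated, and ebs shl lhp1, in which all 3 are. At harvest the seedlings were 3 weeks old, and they had grown on half-strength MS plates with 8 h of light and 16 h of darkness per day. The labels name the mutated genes but give no alleles, and they call the 3 libraries of a genotype biological repeats without saying how many seedlings were pooled. RNA was purified with the RNeasy Plus Mini kit for WT, lhp1 and ebs shl, whereas the triple mutant had the miRNeasy Micro kit, which among the other genotypes was used for emf1 alone. The interaction therefore sets 1 genotype with one kit against 3 genotypes with the other, and the kit and the triple genotype cannot be told apart in any value below. The 3 emf1 libraries shared in the estimate of the spread, and their values are given beside those of some named genes and lists only.

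Polycomb group proteins keep genes silent by placing trimethyl groups on lysine 27 of histone H3. LHP1 is a chromodomain protein that binds this mark, while EBS and SHL are closely related proteins with a BAH domain and a PHD finger that bind methylated histone H3. In Arabidopsis, Polycomb repression is known above all for keeping the floral homeotic MADS-box genes and the florigen gene FT off in leaves, and EMF1 is a plant-specific protein that works with the Polycomb complexes.

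The interaction is the lhp1 effect measured in the ebs shl background (ebs shl lhp1 minus ebs shl) minus the lhp1 effect measured in WT (lhp1 minus WT), in log2 units. A value of 0 means that the fold changes of lhp1 and of ebs shl multiply in the triple mutant, which is called additive here because the log2 effects then add up. Each locus was tested with edgeR's quasi-likelihood F test, and a call is a Benjamini-Hochberg adjusted p under 0.05 over all 20477 tested loci. Effects are given as log2 ± SE, and levels as CPM, the counts of a locus relative to its library's total, scaled with trimmed-mean (TMM) factors. Called interactions were sorted by the effects of both mutants against WT. The synergistic ones are loci called in the triple mutant but in neither of lhp1 and ebs shl (triple mutant alone), and loci with a called lhp1 or ebs shl effect on which the triple effect exceeded the sum (more than additive). The antagonistic ones are loci with a called lhp1 or ebs shl effect whose fitted triple effect was smaller than the sum (less than additive) or lay on the other side of WT (reversed), whether or not the triple effect itself was called. A locus with no called interaction but a called effect was counted as additive where the 95% interval of its interaction lay within 2-fold in either direction, and as undetermined otherwise. The WT libraries enter both mutant effects, and they enter the interaction with the opposite sign.

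Libraries held 11730989 to 16247262 counts. Nuclear ribosomal RNA loci made up 0.211% to 0.369% of the counts in WT, lhp1 and ebs shl, 0.987% to 1.68% in the labelled triple mutant and 0.594% to 0.829% in emf1. LHP1 itself (AT5G17690) was at 18.6, 20.1 and 20.8 CPM in WT, 10.8, 10.1 and 10.6 in lhp1, 19.2, 18.9 and 19.97 in ebs shl and 23.4, 20.7 and 19.3 in the labelled triple mutant. This level was lower in the 3 lhp1 libraries than in all others, and the labelled triple mutant did not share this: the lhp1 effect was -0.92 ± 0.09 (adjusted p = 9.14e-05) and that of the labelled triple mutant against WT was 0.09 ± 0.09 (adjusted p = 0.393). The LHP1 locus overlaps another tested gene, which lies on the other strand, and the strand setting of the counting is not given, so that its level is uncertain. EBS (AT4G22140) was at 24.1, 27.4 and 25.9 CPM in WT, 26.2, 27.2 and 27.6 in lhp1, 2.58, 3.37 and 1.67 in ebs shl and 2.33, 1.99 and 2.51 in the labelled triple mutant, and SHL (AT4G39100) was at 38.1, 43.6 and 41.2 CPM in WT, 41.5, 37.5 and 45.2 in lhp1, 204, 225 and 221 in ebs shl and 192, 222 and 159.9 in the labelled triple mutant. The ebs shl and labelled triple libraries thus shared a low EBS and a high SHL level, in groups that did not overlap with WT or lhp1. This level goes against a lower SHL transcript in both groups labelled with an shl mutation. The alleles are not given in the sources used here. The name ebs shl is therefore also used as labelled. Because the LHP1 transcript goes against what the lhp1 libraries show, the triple genotype is named below as labelled. Members of every group are whole seedlings, in which fewer cells of a type and less RNA per cell cannot be told apart.

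The interaction was called at 11645 of 20477 loci, or 56.9%, of which 5447 (26.6%) were higher and 6198 (30.3%) lower than the sum. At least 2-fold in size were 2865 of the higher and 4129 of the lower calls. The 95% interval of the interaction had a median half-width of 0.526. The mutant effects behind the sum were far fewer: lhp1 differed from WT at 269 loci (1.31%) and ebs shl at 1604 (7.83%), while the labelled triple mutant differed from WT at 14386 (70.3%) and from ebs shl at 13931 (68.0%). With upper-quartile scaling 36.8% of the interaction calls were higher, against 46.8% with TMM, and the median interaction of all loci moved from -0.05 to -0.22.

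Most calls were synergistic in the sense that neither mutant had a called effect. Loci called in the labelled triple mutant alone numbered 4528 higher (22.1%) and 5144 lower (25.1%). Their median triple effects were 1.00 and -1.46, beside median emf1 effects of 0.69 and -1.12. More than additive loci were 288 higher (1.41%) and 147 lower (0.718%). The antagonistic loci were 364 less than additive (1.78%) and 272 reversed (1.33%), and 902 called loci met none of these rules and were not sorted. Of the loci without a called interaction, 2135 were additive within 2-fold (10.4%), 1823 were undetermined and 4874 had no call at all. Among the 2135 additive loci lhp1 was called at 19, ebs shl at 264 and both at 14. The labelled triple mutant was called against WT at 2116 of them. Most additive loci thus had no called lhp1 or ebs shl effect that could add up. Leaving out 1 library moved the smaller classes by over 1.5 times. The 147 became 66, 92 and 54 without WT 1, 2 and 3, 55, 68 and 48 without ebs shl 1, 2 and 3, and 94 without lhp1 3. The 288 became 176, 190 and 148 without WT 1, 2 and 3 and 170, 187 and 172 without ebs shl 1, 2 and 3. The reversed loci became 145 and 146 without WT 2 and 3 and 178, 149 and 138 without ebs shl 1, 2 and 3.

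**Figure D1:**
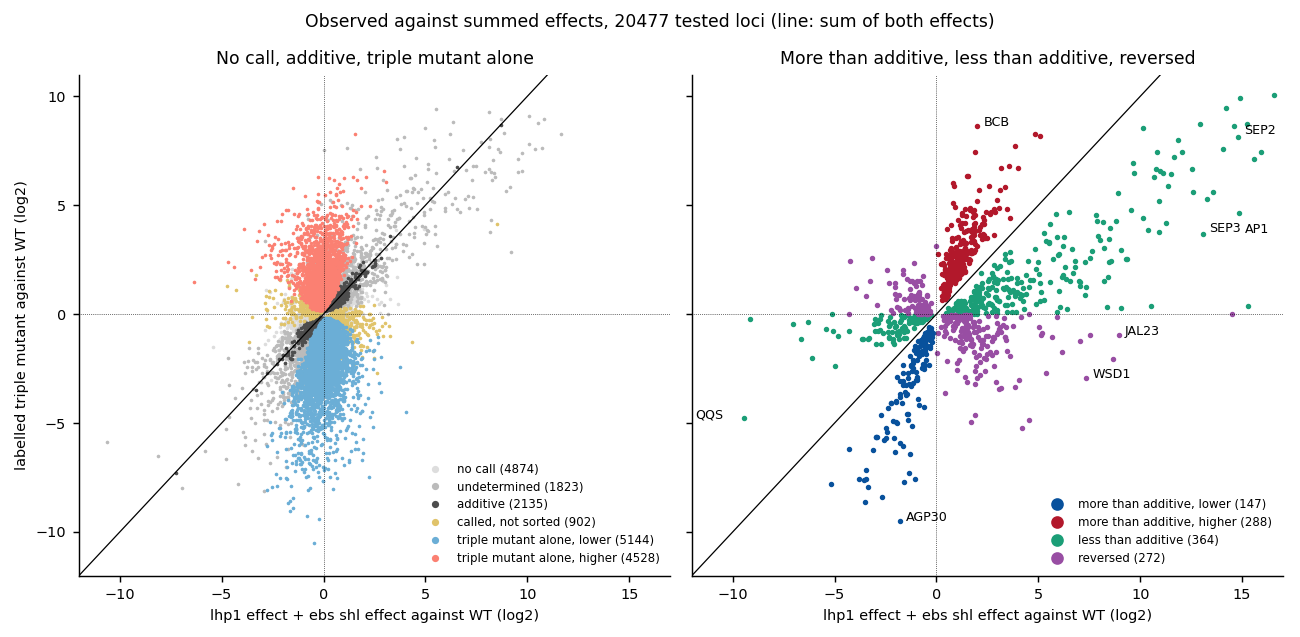
Log2 effect of the labelled triple mutant against WT (vertical) plotted against the sum of the lhp1 and ebs shl effects (horizontal) for 20477 tested loci, each a point, with the class sizes in the legends. The line marks equality. Loci called in the triple mutant alone (4528 higher, 5144 lower) form a vertical band near 0. The less than additive floral genes AP1, SEP2 and SEP3 lie far to the right under the line. JAL23 and WSD1 lie below 0 on the vertical axis although both mutants raised them, and the JAL23 triple and WT libraries overlapped.

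Most floral identity genes rose in lhp1 and in ebs shl, and 9 of 14 had a lower mean level in the labelled triple mutant than in either. Of 18 listed genes 14 could be tested, and 12 of these had a lower interaction, beside 30.3% of all loci, and all 12 were less than additive, with a median interaction of -6.09 beside -0.05 over all loci. In lhp1 12 of the 14 rose over WT, beside 0.772% of all loci, in ebs shl 13, beside 5.31%, and in the labelled triple mutant 11, beside 34.6%. The median log2 effects of the 14 were 4.79, 4.97 and 4.04. The low-count filter keeps loci that are high in 1 genotype alone. AP1, AP3, SEP2, CAL and SHP2 held 1 to 3 counts in WT and passed it through other genotypes. Their rise over WT is thus partly set by the filter, and so are these shares and medians. The summed level of the 18 was 32.1 to 38.5 CPM for WT, 279 to 314 for lhp1, 337 to 394 for ebs shl, 396 to 526 for the labelled triple mutant, where PI made up at least 302 in each library, and 173 to 201 for emf1. The triple mean was below both mutant means for 9 members, between them for 3 and above both for 2, and on the linear scale 13 of 14 lay under the sum of the 2 increments over WT. Against ebs shl the labelled triple mutant was lower at 6 members and higher at 1, beside 35.2% and 32.8% of all loci. Against lhp1 it was lower at 8 and higher at 1, beside 36.6% and 34.3%. In emf1 6 members rose and 2 fell, beside 30.7% and 33.9%, with a median effect of 1.11.

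AP1, a MADS-box gene that gives floral meristems their identity (AT1G69120), was at 0, 0.0611 and 0 CPM in WT, 2.15, 2.80 and 1.65 in lhp1, 9.80, 13.5 and 10.6 in ebs shl and 1.21, 0.190 and 0.726 in the labelled triple mutant. Its triple libraries were all below the lhp1 and ebs shl libraries and all above WT, and emf1 was at 0, 0.218 and 0.0889 CPM. The lhp1 effect turned from 6.24 ± 0.78 in WT to -3.97 ± 0.44 in ebs shl, an interaction of -10.22 ± 0.86 (adjusted p = 2.25e-06). WT held 1 AP1 count in its 3 libraries, so that the fitted fold changes depend on the prior count. The ebs shl to WT ratio of counts was 546 with an exact 95% counting interval of 97.5 to 21600. LFY, which acts with AP1 in the floral meristem, was at 0.0604, 0.244 and 0.126 CPM in WT, 1.04, 1.49 and 1.34 in lhp1, 3.58, 1.90 and 3.18 in ebs shl and 0.279, 0.0949 and 0.594 in the labelled triple mutant. Its triple and mutant libraries did not overlap either, while triple and WT libraries did, and the interaction was -6.13 ± 0.76 (adjusted p = 2.41e-05). AGL8, also known as FRUITFULL and active in the inflorescence meristem, reached 21.1, 23.6 and 22.9 CPM in ebs shl and 4.09, 1.61 and 3.76 in the labelled triple mutant, between 1.15, 0.977 and 1.32 in WT and 8.53, 8.46 and 6.46 in lhp1, with an interaction of -5.57 ± 0.35 (adjusted p = 4.06e-07).

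The SEPALLATA genes, whose products join the other floral MADS proteins in complexes, differed among themselves. SEP3 (AT1G24260) was at 1.63, 1.28 and 1.07 CPM in WT, 134, 142 and 122 in lhp1, 102, 132 and 118 in ebs shl and 31.3, 7.59 and 12.7 in the labelled triple mutant. All triple libraries were under all mutant libraries and over WT, and the interaction was -9.41 ± 0.55 (adjusted p = 3.89e-07, 95% interval -10.59 to -8.22). Simple addition of the increments over WT would give 249 CPM and multiplication of the fold changes 11520 CPM, against a triple mean of 17.2 ± 12.5 (SD, n = 3). SEP1 was at 0.363, 0.244 and 0.377 CPM in WT, 37.6, 33.04 and 31.8 in lhp1, 32.8, 48.2 and 38.04 in ebs shl and 22.1, 14.3 and 13.5 in the labelled triple mutant, and its interaction was -7.92 ± 0.41 (adjusted p = 2.17e-07). It follows the order of SEP3 without overlap between the triple and mutant libraries, and it overlaps a tested gene on the other strand. SEP2 was at 0.0604, 0.0611 and 0 CPM in WT, 9.12, 8.90 and 8.60 in lhp1, 6.10, 9.22 and 8.20 in ebs shl and 20.4, 10.7 and 11.4 in the labelled triple mutant. Here the triple libraries were above those of both mutants, a difference of 0.85 ± 0.42 from ebs shl that did not pass the threshold (adjusted p = 0.0889). The interaction of -6.63 ± 1.04 (adjusted p = 0.000137) rests on 2 SEP2 counts in WT. SEP4, the member with a clear level in WT, was at 9.67, 13.2 and 12.2 CPM in WT and 22.3, 27.8 and 25.02 in the labelled triple mutant, where it overlapped lhp1 at 27.8, 20.2 and 25.9 and lay under ebs shl at 40.9, 48.7 and 36.2, with an interaction of -1.82 ± 0.21 (adjusted p = 1.66e-05).

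The organ identity genes AP3, PI and AG did not move alike. AP3, a class B gene of petals and stamens, was at 0.0604, 0.0611 and 0.0628 CPM in WT, 17.1, 18.1 and 14.2 in lhp1, 15.3, 20.9 and 19.4 in ebs shl and 24.1, 4.65 and 8.58 in the labelled triple mutant. Triple library 1 exceeded the mutant libraries and libraries 2 and 3 were below them, and triple library 1 was the highest of the 3 for 9 of the 14 floral members. The AP3 interaction was -8.46 ± 0.91 (adjusted p = 9.77e-06), and the labelled triple mutant differed from ebs shl by -0.58 ± 0.40 (adjusted p = 0.209). PI, the partner of AP3, was at 2.66, 3.79 and 2.83 CPM in WT, 22.4, 14.8 and 20.3 in lhp1, 87.9, 71.5 and 83.5 in ebs shl and 375, 365 and 302 in the labelled triple mutant. All triple libraries were far above the rest, the labelled triple mutant exceeded ebs shl by 2.1 ± 0.16 (adjusted p = 2.19e-07), and emf1 was at 171, 137 and 166 CPM. The PI interaction of -0.53 ± 0.24 (adjusted p = 0.0747) did not pass the threshold, and its interval of -1.04 to -0.01 left it undetermined. AG, the class C gene of stamens and carpels, was at 0.0604, 0.0611 and 0.126 CPM in WT, 25.96, 22.3 and 20.5 in lhp1, 1.95, 4.97 and 3.79 in ebs shl and 6.51, 1.23 and 2.97 in the labelled triple mutant. Its triple libraries overlapped ebs shl and were under all lhp1 libraries, so that the lhp1 effect of 7.98 ± 0.68 in WT stood against 0.00 ± 0.45 in ebs shl (interaction -7.98 ± 0.86, adjusted p = 1.04e-05).

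**Figure D2:**
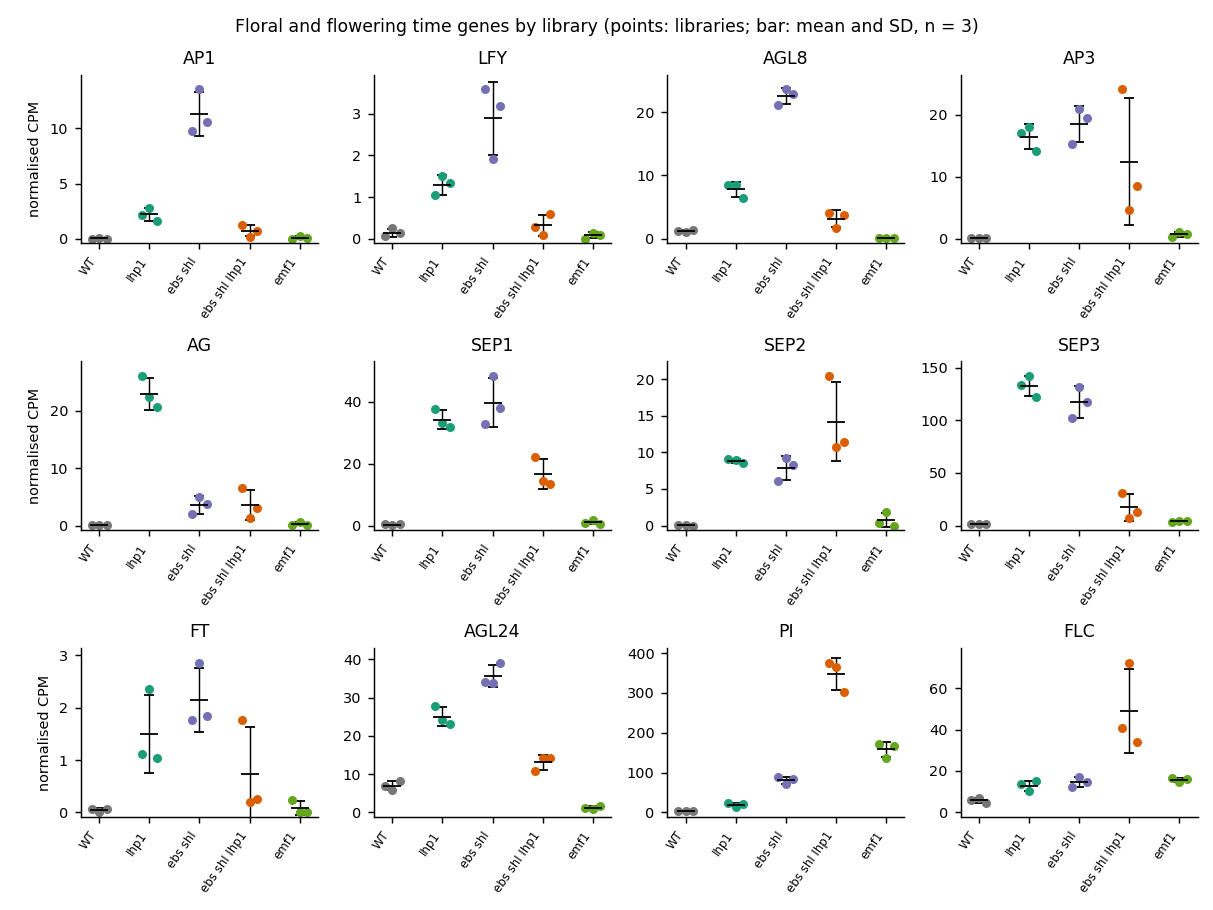
Normalised CPM of 12 floral and flowering time genes in each library (points) of 5 genotypes, with the mean and SD of 3 libraries as a bar, on a linear axis from 0 per gene. AP1, LFY, AGL8, SEP1 and SEP3 are lower in the labelled triple mutant than in both other mutants, SEP2, PI and FLC are highest there, and AP3, AG and FT have 1 triple library (replicate 1) above the other 2.

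Of 31 listed flowering time genes 27 were tested. There were 6 higher interactions (22.2%, beside 26.6% of all loci) and 11 lower ones (40.7%, beside 30.3%). Among these calls 7 were less than additive, 3 reversed, 5 called in the labelled triple mutant alone and 2 not sorted. FT, which encodes the mobile florigen, was at 0.0604, 0 and 0.0628 CPM in WT, 1.11, 2.36 and 1.04 in lhp1, 1.76, 2.85 and 1.84 in ebs shl and 1.77, 0.190 and 0.264 in the labelled triple mutant. Triple library 1 was within the range of the mutants, libraries 2 and 3 were below it, and the interaction was -6.51 ± 1.24 (adjusted p = 0.000582) on 2 counts in WT and 25 in the labelled triple mutant. AGL24, a promoter of flowering, was at 6.89, 5.92 and 8.23 CPM in WT, 27.8, 24.1 and 23.04 in lhp1, 34, 33.8 and 38.99 in ebs shl and 10.8, 14.3 and 14.1 in the labelled triple mutant. All triple libraries lay between WT and the mutants, and the interaction was -3.27 ± 0.23 (adjusted p = 8.25e-07), while emf1 was below WT at 1.24, 0.874 and 1.69 CPM. AGL20, also known as SOC1, had the same class with a smaller interaction of -0.79 ± 0.26 (adjusted p = 0.0192).

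The list holds 5 SPL genes, which promote the change from juvenile to adult and flowering phases, and 4 of these were tested, all with called lower interactions. That of SPL4 was -2.91 ± 0.45 (adjusted p = 0.000128). SPL5 rose to 5.26, 5.91 and 5.30 CPM in lhp1 and 3.08, 4.02 and 2.96 in ebs shl from 0.786, 0.672 and 0.691 in WT, and was at 0.930, 0 and 0.198 in the labelled triple mutant, overlapping WT (interaction -6.10 ± 0.75, adjusted p = 2.4e-05). SPL5 and SPL15 overlap tested genes on the other strand. SPL9 was at 8.76, 5.13 and 8.29 CPM in WT, 14.6, 10.8 and 9.45 in lhp1, 8.99, 14.1 and 12.3 in ebs shl and 1.49, 0.569 and 2.51 in the labelled triple mutant, and SPL15 at 1.63, 1.34 and 1.45 CPM in WT, 2.89, 2.92 and 2.74 in lhp1, 2.14, 2.63 and 2.34 in ebs shl and 0.0930, 0 and 0.198 in the labelled triple mutant. Both were under all 9 other libraries of the interaction in the labelled triple mutant, with interactions of -3.52 ± 0.47 (adjusted p = 4.17e-05) and -5.29 ± 0.50 (adjusted p = 4.71e-06).

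Repressors of flowering gave other patterns. TEM1, which represses FT, was at 21.2, 52.1 and 28.1 CPM in WT, 8.82, 23.2 and 32.9 in lhp1, 34.8, 14.6 and 16.1 in ebs shl and 133, 154 and 120.2 in the labelled triple mutant, with the triple libraries above all others (interaction 3.27 ± 0.62, adjusted p = 0.000584), and emf1 was at 276, 199 and 176. Its homolog RAV2, also known as TEM2, had an interaction of 3.74 ± 0.72 (adjusted p = 0.000635). FLC, the MADS-box repressor silenced by cold, was at 6.17, 7.02 and 4.46 CPM in WT, 13.7, 10.3 and 14.9 in lhp1, 12.3, 16.9 and 14.5 in ebs shl and 40.8, 72.02 and 33.9 in the labelled triple mutant. Its triple libraries were above all 9 others, but the interaction of 0.61 ± 0.36 (adjusted p = 0.166) was not called. SVP, a repressor that acts with FLC, fell by 0.50 in lhp1 (adjusted p = 0.012) and by 0.42 in ebs shl (adjusted p = 0.0101), in log2 units, and its triple libraries overlapped WT (88.8, 103 and 92.4 CPM against 80.4, 105 and 95), an interaction of 0.94 ± 0.13 (adjusted p = 5.21e-05).

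Shoot meristem and organ boundary genes had interactions on the lower side alone. Of 18 listed genes 15 were tested, and 10 were lower and 0 higher, beside 30.3% and 26.6% of all loci (median -1.40). Of the 10, 6 were less than additive, 2 reversed and 2 called in the labelled triple mutant alone. In ebs shl 11 of the 15 rose, beside 5.31% of all loci, and in lhp1 1, beside 0.772%. The median ebs shl effect was 1.23. HB-3, also known as WOX9 and needed for meristem growth, was at 0, 0.244 and 0.0628 CPM in WT, 1.11, 0.933 and 0.975 in lhp1, 2.33, 3.15 and 1.73 in ebs shl and 0.744, 0.664 and 0.990 in the labelled triple mutant, with the triple libraries between WT and ebs shl and overlapping lhp1 (interaction -4.73 ± 0.68, adjusted p = 7.55e-05). CUC3, a boundary gene, was at 0.907, 1.04 and 1.005 CPM in WT, 1.63, 2.12 and 1.83 in lhp1, 3.83, 5.05 and 3.74 in ebs shl and 0.558, 0.474 and 0.594 in the labelled triple mutant. Its triple libraries were under all others (interaction -3.84 ± 0.59, adjusted p = 0.000119), although the triple effect against WT was not called (-0.84 ± 0.48, adjusted p = 0.131). The call of another member, CUC1 (-2.46 ± 0.81, adjusted p = 0.019), was lost without WT 2 and without lhp1 2, with adjusted p up to 0.122 for CUC1.

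The 269 loci called in lhp1 were also sorted by class. Of these, 135 were less than additive, 64 reversed, 20 more than additive, 19 additive, 25 undetermined and 6 not sorted. The lhp1 effect was called in ebs shl with the same sign at 75 loci. It was called there with the opposite sign, together with a called interaction, at 125. Over all loci, 68.0% were called between the labelled triple mutant and ebs shl. The WT and lhp1 libraries that chose the 269 loci enter the interaction too. Leaving out 1 library moved the 269 to 151 and 144 without WT 2 and 3, and to 153, 165 and 162 without lhp1 1, 2 and 3. For ebs shl the 1604 became 1007 without WT 3 and 1044, 1045 and 950 without ebs shl 1, 2 and 3.

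**Figure D3:**
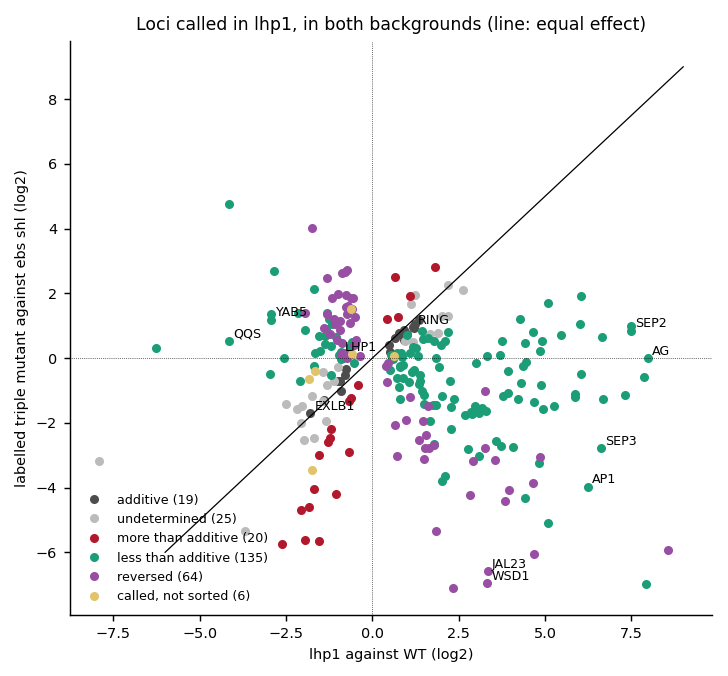
Log2 effect of lhp1 in the ebs shl background (labelled triple mutant against ebs shl, vertical) plotted against its effect in WT (horizontal) for the 269 loci called in lhp1, each a point coloured by class. The line marks equal effects. Floral genes such as AG and SEP2 lie far to the right and near 0 on the vertical axis, AP1, SEP3, WSD1 and JAL23 lie under 0 on the vertical axis, and the 19 additive loci lie along the line.

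Among called loci with a known symbol and at least 5 CPM in 1 genotype, the 8 lowest interactions were those of WSD1, AP1, JAL23, SEP3, AP3, AG, SEP1 and AGP30. WSD1, a wax ester synthase, was at 1.15, 0.611 and 0.942 CPM in WT, 12.8, 8.84 and 5.67 in lhp1, 12.4, 15.7 and 16.1 in ebs shl and 0.279, 0 and 0.0660 in the labelled triple mutant. Both mutants were above WT without overlap and the labelled triple mutant was below it, with an lhp1 effect of 3.32 ± 0.37 in WT, -6.95 ± 0.52 in ebs shl and an interaction of -10.27 ± 0.64 (adjusted p = 4.06e-07). JAL23, a jacalin-related lectin, was at 0.302, 0.183 and 0.189 CPM in WT, 2.08, 3.73 and 1.28 in lhp1, 10.3, 14.8 and 9.04 in ebs shl and 0.186, 0.0949 and 0.0660 in the labelled triple mutant, so that both mutants rose and the triple and WT libraries overlapped at the bottom (interaction -9.92 ± 0.73, adjusted p = 1.12e-06). The auxin transporter gene PIN6 was at 4.71, 3.54 and 5.28 CPM in WT, 10.5, 6.97 and 6.34 in lhp1, 6.85, 8.63 and 9.76 in ebs shl and 0, 0.190 and 0.198 in the labelled triple mutant. The libraries of both mutants were above WT. The ebs shl effect was called (0.90 ± 0.26, adjusted p = 0.0482) and the lhp1 effect was not (0.81 ± 0.26, adjusted p = 0.21), a difference that was not tested. PIN6 was lowest in the labelled triple mutant (interaction -6.67 ± 0.52, adjusted p = 1.55e-06), and emf1 was at 0.463, 0.655 and 0.711. The galactinol synthase gene GolS3 and the beta-amylase gene BAM5 also fell from ebs shl to the labelled triple mutant, with interactions of -6.51 ± 0.73 (adjusted p = 1.31e-05) and -6.42 ± 1.08 (adjusted p = 0.000401). AGP30, an arabinogalactan protein gene, was at 7.43, 5.86 and 5.34 CPM in WT, 3.41, 7.22 and 4.02 in lhp1, 1.38, 2.27 and 3.18 in ebs shl and 0 in all 3 libraries in the labelled triple mutant. The labelled triple mutant had 0 counts, which puts it at least 75.6-fold below WT, with a floor of 3 counts for the genotype, and its fitted interaction was -7.71 ± 1.17 (adjusted p = 0.000375). BAM5 had 2.51, 0 and 0.132 CPM in the triple libraries, of which 1 carried nearly all of its counts.

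Some genes that fell in both mutants were back near WT, or part of the way, in the labelled triple mutant. LHB1B1, a chlorophyll a/b-binding protein of photosystem II, was at 1320, 2246 and 1725 CPM in WT, 769, 747 and 983 in lhp1, 812, 921 and 860.5 in ebs shl and 1856, 1601 and 1969 in the labelled triple mutant. The lhp1 and ebs shl libraries were under all WT libraries and the triple libraries were within the WT range (interaction 2.15 ± 0.26, adjusted p = 2.02e-05). BEE3, a growth-promoting bHLH gene that brassinosteroids induce, was at 14.3, 31.8 and 22.9 CPM in WT, 5.19, 7.78 and 8.47 in lhp1, 2.95, 1.46 and 3.29 in ebs shl and 15.5, 8.45 and 10.7 in the labelled triple mutant, with the triple libraries above ebs shl and overlapping WT. Its interaction was 3.82 ± 0.46 (adjusted p = 2.1e-05), and that of its relative BEE1 was 2.22 ± 0.31 (adjusted p = 6.07e-05). YAB5, a YABBY gene of the lower leaf side, was at 12.6, 13.6 and 16.8 CPM in WT, 2.002, 2.12 and 1.46 in lhp1, 1.32, 1.90 and 1.51 in ebs shl and 4.28, 2.28 and 4.09 in the labelled triple mutant. The triple libraries were above both mutants and under WT (interaction 4.13 ± 0.34, adjusted p = 2.1e-06), while emf1 was at 18.5, 16.7 and 20.99. AOC2, an allene oxide cyclase of jasmonate synthesis, was at 26.5, 54.5 and 54.2 CPM in WT, 9.86, 7.78 and 12.7 in lhp1, 9.99, 11.3 and 9.26 in ebs shl and 35.6, 17.55 and 26.7 in the labelled triple mutant, with the triple libraries above both mutants and overlapping WT (interaction 3.54 ± 0.45, adjusted p = 2.79e-05). QQS, an orphan gene tied to starch content, was low in all mutants at 0.593, 0.311 and 0.549, 0.440, 0 and 0.167 and 0.558, 0.190 and 0.198 CPM against 7.98, 9.83 and 7.98 in WT, and its interaction of 4.66 ± 0.87 (adjusted p = 0.000528) goes with a labelled triple level that overlapped those of both mutants. Among reversed genes that ended above WT were the cytochrome P450 gene CYP71B29 (3.04 ± 0.35, adjusted p = 1.55e-05), the glycine-rich protein gene GRP-3 (2.37 ± 0.17, adjusted p = 1.12e-06), and the glycosyltransferase gene UGT87A2 (2.82 ± 0.24, adjusted p = 2.42e-06).

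Genes of sugar starvation and extended darkness rose in the labelled triple mutant and in emf1. Of 20 listed genes 18 were tested, and all 18 had a higher interaction, beside 26.6% of all loci, with a median of 3.50. In all 18 the triple libraries were above the other 9, beside 29.6% of all loci. In ebs shl 1 was called and in lhp1 0, and 18 rose in emf1, beside 30.7%, by a median of 2.65. ASN1, an asparagine synthetase gene induced by darkness, was at 22.9, 208 and 52.1 CPM in WT, 11.3, 33.4 and 85.2 in lhp1, 84.2, 37.5 and 22.1 in ebs shl and 1314, 2394 and 1848 in the labelled triple mutant. The lowest triple library was several times the highest of the others, which spread widely among themselves, and the interaction was 6.39 ± 1.17 (adjusted p = 0.000447). BCAT-2, an aminotransferase of branched-chain amino acid breakdown, was at 2.18, 2.93 and 1.82 CPM in WT, 2.30, 1.87 and 2.56 in lhp1, 10.5, 10.02 and 6.02 in ebs shl and 393, 487 and 351 in the labelled triple mutant. Because ebs shl already had a called rise of 1.93 ± 0.42, it is more than additive (interaction 5.58 ± 0.61, adjusted p = 1.06e-05). It overlaps a tested gene on the other strand. The beta-glucosidase gene DIN2 had an interaction of 6.06 ± 0.80 (adjusted p = 4.01e-05), and ICL, the isocitrate lyase of the glyoxylate cycle, one of 3.64 ± 0.65 (adjusted p = 0.000361).

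Touch and wounding genes had 8 higher (50%) and 0 lower interactions among 16 tested of 17 listed, beside 26.6% and 30.3% of all loci. Their median was 3.44, and 6 further members were undetermined. In the labelled triple mutant 14 rose over WT, beside 34.6% of all loci, and 7 had triple libraries above all 9 others, beside 29.6%. XTH24, a cell wall xyloglucan enzyme, was at 46.7, 58.7 and 36.7 CPM in WT, 60.1, 52.7 and 59.6 in lhp1, 94.03, 133 and 99.5 in ebs shl and 3347, 4988 and 3137 in the labelled triple mutant. XTH24 was far above the rest in all triple libraries (interaction 4.86 ± 0.37, adjusted p = 1.34e-06), with 658, 544 and 1062 CPM in emf1. The related XTR6 and the calmodulin-like TCH3 had interactions of 5.80 ± 0.71 (adjusted p = 2.35e-05) and 5.33 ± 1.02 (adjusted p = 0.000653). The 8 calls became 5 without ebs shl 2, without ebs shl 3 or without the labelled triple library 3, and 13 without the labelled triple library 1. Senescence and chlorophyll breakdown genes had 9 higher (64.3%) and 0 lower calls of 14 tested of 15 listed (median 1.39). Their members SAG21 (3.81 ± 0.50, adjusted p = 3.73e-05), SAG20 (3.25 ± 0.37, adjusted p = 1.33e-05) and NAC6 (2.96 ± 0.50, adjusted p = 0.000262), the last also known as ORE1 and a regulator of leaf ageing, had triple libraries above all 9 others.

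Among called loci with a known symbol and at least 5 CPM in 1 genotype, the 8 highest interactions were those of VIM4, BCB, ASN1, DIN2, CRK13, CRK14, XTR6 and PSK2. BCB, a blue copper-binding protein, was at 2.42, 4.21 and 2.199 CPM in WT, 1.93, 2.18 and 3.78 in lhp1, 21.9, 11.6 and 5.91 in ebs shl and 964, 1343 and 1186 in the labelled triple mutant, a called rise of 2.15 ± 0.46 in ebs shl and 8.62 ± 0.54 in the labelled triple mutant (interaction 6.62 ± 0.67, adjusted p = 6.81e-06). The phytosulfokine precursor PSK2 and the receptor-like kinases CRK13 and CRK14 were called in the triple mutant alone, with interactions of 5.77 ± 0.69, 5.92 ± 0.84 and 5.87 ± 1.02 (adjusted p = 2.03e-05, 6.54e-05 and 0.000306). The nitrate transporter gene NRT1.8 and the defensin-like gene PDF1.4 also rose in the labelled triple mutant alone, with triple effects against WT of 6.25 ± 0.56 and 6.16 ± 0.32 (adjusted p = 4.48e-07 and 8.85e-09).

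Aliphatic glucosinolate genes, which make sulfur-rich defence compounds, fell in the labelled triple mutant. Of 22 listed genes 20 were tested, and all 20 had a lower interaction, beside 30.3% of all loci, with a median of -3.76. In all 20 the triple libraries were under the other 9, beside 31.2% of all loci, and 2 fell in ebs shl, beside 2.52%, and 0 in lhp1. Their summed level was 1894 to 2080 CPM (range of 3 libraries) for WT, 1811 to 2013 for lhp1, 1231 to 1900 for ebs shl, 207 to 295 for the labelled triple mutant and 214 to 357 for emf1. MYB28, a main regulator of the pathway, was at 79.9, 53.5 and 77.8 CPM in WT, 77.7, 66.8 and 60.9 in lhp1, 50.03, 71.4 and 57.5 in ebs shl and 4.19, 0.759 and 1.98 in the labelled triple mutant. The triple libraries were far under the rest, and the interaction was -4.66 ± 0.56 (adjusted p = 2.1e-05). Its homolog MYB29 had a called fall in ebs shl of -1.22 ± 0.32 and is more than additive (interaction -5.13 ± 0.63, adjusted p = 2.4e-05). BAT5, a plastid transporter of the side-chain pathway, was at 65.04, 43.7 and 59.1 CPM in WT, 62.8, 57.6 and 43.2 in lhp1, 30.3, 56.5 and 46.5 in ebs shl and 0.930, 0.285 and 0.330 in the labelled triple mutant (interaction -6.42 ± 0.71, adjusted p = 1.2e-05). Sulfur deficiency genes, which respond to the same nutrient, had 12 lower (75%) and 0 higher calls among 16 tested of 17 listed (median -2.67). ATSDI1, a gene induced by lack of sulfur, was at 24.96, 57.3 and 46.4 CPM in WT, 18.24, 36.6 and 36.6 in lhp1, 24.7, 18.6 and 8.65 in ebs shl and 0.186, 0.190 and 0.264 in the labelled triple mutant, with no overlap of the triple libraries and an interaction of -5.76 ± 1.01 (adjusted p = 0.00034).

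Cell division genes fell in the labelled triple mutant. All 24 listed were tested. All 24 had lower interactions, beside 30.3% of all loci, and all were called in the labelled triple mutant alone, with a median of -2.61. In emf1 all 24 fell, beside 33.9% of all loci, by a median of 1.93 in log2 units. CYCA1;1, an A-type cyclin, was at 11.2, 11.8 and 12.7 CPM in WT, 13.3, 12.01 and 12.7 in lhp1, 11.2, 10.8 and 12.8 in ebs shl and 0.838, 0.285 and 1.92 in the labelled triple mutant, and MCM2, a subunit of the DNA replication helicase, was at 58.6, 47.1 and 50.2 CPM in WT, 60.8, 60.98 and 59.6 in lhp1, 44.3, 42.6 and 43.01 in ebs shl and 5.12, 3.51 and 6.67 in the labelled triple mutant. WT, lhp1 and ebs shl were close to each other and the triple libraries were far below, with interactions of -3.49 ± 0.53 (adjusted p = 0.000118) and -3.28 ± 0.28 (adjusted p = 2.44e-06). Leaf polarity genes had 9 lower calls (75%) and 1 higher (8.33%) among 12 tested of 12 listed (median -0.99), beside 30.3% and 26.6% of all loci. REV, which specifies the upper leaf side, was lower at -2.26 ± 0.26 (adjusted p = 1.53e-05). REV overlaps a tested gene on the other strand. Auxin transport and synthesis genes had 12 lower (66.7%) and 2 higher (11.1%) among 18 tested of 20 listed (median -1.66). Among the lower ones were the transporters PIN5 (-6.24 ± 0.89, adjusted p = 6.61e-05) and LAX2 (-3.53 ± 0.36, adjusted p = 6.74e-06). PIN5 held 1 count in the labelled triple mutant, against 247 in WT, a ratio of 184 with an exact 95% counting interval of 32.8 to 7307.

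Most root hair and iron acquisition genes fell in the labelled triple mutant and in emf1. Of 17 root hair genes, all tested, 14 (82.4%) had lower interactions and 0 higher (median -2.92), beside 30.3% and 26.6% of all loci. Their summed level was 72.4 to 102 CPM for WT, 73.0 to 102 for lhp1, 77.3 to 84.3 for ebs shl, 7.07 to 20.5 for the labelled triple mutant and 3.32 to 14.2 for emf1. None of the 17 was at 0 in all 12 libraries. RHD2, the NADPH oxidase of growing root hairs, was at 11.97, 9.65 and 7.85 CPM in WT, 7.04, 9.89 and 7.38 in lhp1, 5.72, 9.95 and 8.03 in ebs shl and 0.279, 0.0949 and 0.792 in the labelled triple mutant (interaction -3.89 ± 0.80, adjusted p = 0.00109). Iron acquisition genes had 12 lower (75%) and 0 higher among 16 tested of 18 listed, and 14 fell in emf1, beside 33.9% of all loci. Their median was -3.80, or -3.17 with genes that had a genotype at 0 counts set at their bound. The summed level differed far less, at 691 to 918 CPM for WT, 720 to 791 for lhp1, 781 to 953 for ebs shl, 580 to 674 for the labelled triple mutant and 440 to 533 for emf1. The proton pump gene HA2 held most of it, with 494 ± 70.05 CPM in WT and 486 ± 51.5 in the labelled triple mutant (SD, n = 3). IRT1, the main iron transporter, was at 43.2, 20.3 and 19.9 CPM in WT, 17.58, 27.3 and 35.8 in lhp1, 28.97, 32.1 and 39.05 in ebs shl and 0.372, 0 and 0.198 in the labelled triple mutant. The triple libraries were under all others (interaction -7.33 ± 0.71, adjusted p = 1.06e-05), and emf1 was at 0 in all 3 libraries. The regulator bHLH38 had 0 counts in the triple libraries, at least 36.3-fold lower than WT with a floor of 3 counts for the genotype. Root endodermis genes moved less, with 3 lower (20%) and 2 higher (13.3%) calls among 15 tested of 17 listed (median -0.19). Their summed level was 157 to 186 CPM for WT and 74.7 to 125 for the labelled triple mutant. The part of the root hair markers' lower level in the iron, sulfur and auxin values was not tested.

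**Figure D4:**
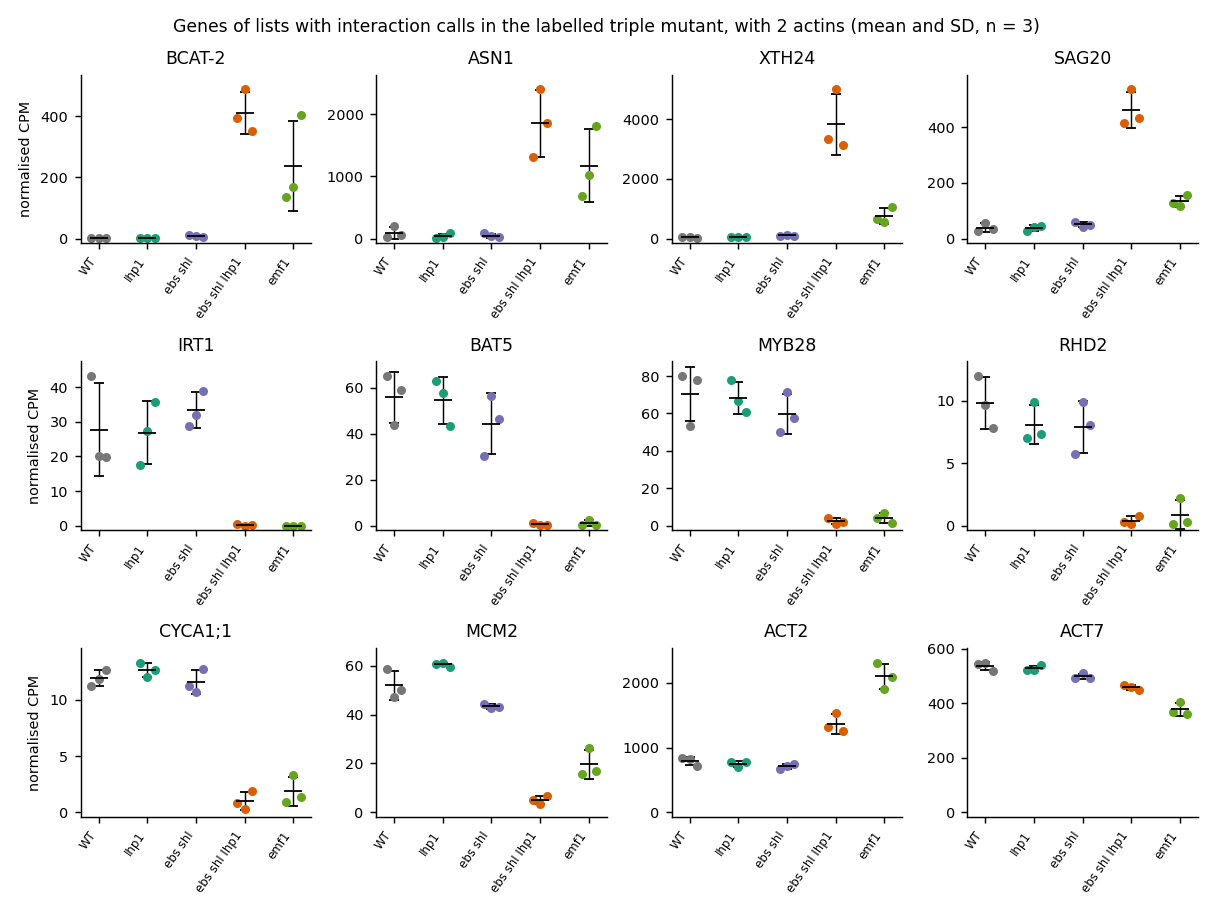
Normalised CPM of 12 genes in each library (points) of 5 genotypes, with the mean and SD of 3 libraries as a bar, on linear axes from 0. BCAT-2, ASN1, XTH24 and SAG20 are higher in the labelled triple mutant than in WT, lhp1 and ebs shl, IRT1, BAT5, MYB28, RHD2, CYCA1;1 and MCM2 are near 0 or far below the 9 other libraries, and ACT2 is above and ACT7 slightly below the 9 other libraries.

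Flavonoid genes had 9 lower (52.9%) and 1 higher (5.88%) interactions among 17 tested of 20 listed, beside 30.3% and 26.6% of all loci. Their median was -2.16, or -1.55 with genes at 0 set at their bound, and 6 were undetermined. FLS1, flavonol synthase, was at 55, 27.1 and 37.7 CPM in WT, 93.4, 76.2 and 63.6 in lhp1, 33.2, 42.7 and 44.3 in ebs shl and 2.60, 4.84 and 3.37 in the labelled triple mutant. The triple libraries were far under the rest (interaction -4.44 ± 0.43, adjusted p = 5.34e-06). The anthocyanin gene LDOX fell in ebs shl by 3.41 (adjusted p = 0.00314) and held 2 counts in the labelled triple mutant. Its interaction of -3.75 ± 1.49 (adjusted p = 0.0448) was lost in 10 of 19 alternative settings, each leaving out 1 library, with adjusted p up to 0.102 for LDOX. Starch genes had 13 lower (59.1%) and 2 higher (9.09%) calls of 22 tested of 22 listed (median -0.57). The subunit gene APL4 of the first committed enzyme was lower at -3.02 ± 0.31 (adjusted p = 7.76e-06). Cuticular wax genes had 8 lower (57.1%) and 4 higher (28.6%) of 14 tested of 16 listed (median -0.60). CER1, the gene of alkane formation, was at 19.4, 20.8 and 23.9 CPM in WT, 62.96, 51.1 and 55.8 in lhp1, 48.3, 53.1 and 52.2 in ebs shl and 14.5, 7.40 and 9.31 in the labelled triple mutant. Both mutants were above WT without overlap, though neither effect was called, and the labelled triple mutant was under WT, so that CER1 (-3.71 ± 0.59, adjusted p = 0.000165) counts as called in the triple mutant alone.

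Salicylic acid and indole glucosinolate genes had shares of called members near those of all loci, 26.6% higher and 30.3% lower. Jasmonate genes and abscisic acid, cold and drought genes had higher shares of 36.4% and 31.8%, not far from that of all loci, and smaller lower shares. Salicylic acid genes had 4 higher and 4 lower calls among 14 tested of 19 listed, 28.6% each (median 0.24). The regulator SARD1 was higher (3.29 ± 1.00, adjusted p = 0.0127) and PBS3, an enzyme of salicylic acid synthesis, lower (-4.15 ± 0.62, adjusted p = 0.000101). Without the labelled triple library 3 the 4 lower calls were 2. Jasmonate genes had 8 higher (36.4%) and 3 lower calls (13.6%) of 22 tested of 24 listed (median 0.41). JAZ7, a repressor of the pathway, was at 4.68 ± 1.01 (adjusted p = 0.0015) and the vegetative storage protein gene VSP2 at -4.12 ± 0.70 (adjusted p = 0.000269). Indole glucosinolate genes had 4 in each direction of 13 tested of 13 listed, 30.8% each (median -0.45). The early enzyme CYP79B2 was lower (-3.63 ± 0.54, adjusted p = 9.06e-05) and IGMT1, a methyltransferase of indole glucosinolates, higher (3.67 ± 0.48, adjusted p = 3.51e-05). The 4 higher calls were 2 without lhp1 1, without ebs shl 2 or without the labelled triple library 3. Abscisic acid, cold and drought genes had 7 higher (31.8%) and 0 lower of 22 tested of 24 listed (median 0.87), with 9 undetermined. DREB2A, a drought and heat regulator that overlaps a gene on the other strand, was at 2.78, 8.12 and 3.39 CPM in WT, 2.67, 3.11 and 4.14 in lhp1, 36.7, 31.2 and 35.6 in ebs shl and 99.8, 86.4 and 97.98 in the labelled triple mutant, already high in ebs shl and higher still in the labelled triple mutant (interaction 1.97 ± 0.48, adjusted p = 0.00336).

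Heat shock genes had 6 higher calls (46.2%) and 1 lower (7.69%) of 13 tested of 15 listed (median 1.61), beside 26.6% and 30.3% of all loci. The 6 became 3 without WT 2, lhp1 3, ebs shl 2 or ebs shl 3. Clock genes divided into 7 higher (36.8%) and 8 lower (42.1%) of 19 tested of 20 listed (median -0.17). LHY, expressed at dawn, was at 165, 116 and 143 CPM in WT, 276, 162 and 163 in lhp1, 119.5, 185 and 209 in ebs shl and 27.5, 31.9 and 17.2 in the labelled triple mutant, and PRR5, expressed later in the day, was at 2.24, 1.22 and 1.82 CPM in WT, 1.33, 1.80 and 2.56 in lhp1, 3.46, 3.44 and 2.40 in ebs shl and 8.56, 14.6 and 23.9 in the labelled triple mutant. LHY was lowest and PRR5 highest in the labelled triple mutant, with interactions of -3.26 ± 0.42 (adjusted p = 3.42e-05) and 2.23 ± 0.63 (adjusted p = 0.00828). The hour of harvest is not given in the labels. SWEET sugar transporters had 3 higher (27.3%) and 4 lower (36.4%) of 11 tested of 17 listed, shares near those of all loci (median -0.08), from SWEET12 at 4.38 ± 0.70 (adjusted p = 0.000163) to SWEET13 at -5.17 ± 0.78 (adjusted p = 0.000108). SWEET10 rose in lhp1 and had no called effect in ebs shl or the labelled triple mutant, at 15.5, 12.8 and 13.8 CPM against 0.121, 0.427 and 0.0628 in WT, 0.189, 0.0732 and 0.0558 in ebs shl and 1.12, 0 and 0.198 in the labelled triple mutant. Its interaction of -4.14 ± 1.48 (adjusted p = 0.0278) was lost without ebs shl 1, at an adjusted p of 0.186. Growth regulators of the BEE, PRE and PIF families had 7 higher (46.7%) and 2 lower (13.3%) of 15 tested of 18 listed (median 0.59).

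Additive loci with called effects in both mutants included RING, CAX7 and EXLB1. RING (AT4G19700), a RING finger gene, was at 5.86, 5.19 and 5.66 CPM in WT, 12.1, 14.4 and 11.4 in lhp1, 17.9, 15.9 and 17.63 in ebs shl and 37.9, 34.4 and 27.99 in the labelled triple mutant. It rose in lhp1, again in ebs shl and most in the labelled triple mutant, without overlap between the genotypes, and the product of the fold changes predicts 38.9 CPM (interaction -0.22 ± 0.20, 95% interval -0.65 to 0.20). CAX7, a cation exchanger gene, was at 4.47, 3.11 and 5.21 CPM in WT, 15.2, 9.21 and 8.29 in lhp1, 10.1, 8.998 and 9.71 in ebs shl and 23.2, 19.3 and 22.1 in the labelled triple mutant with an interaction of -0.18 ± 0.31 and an interval of -0.86 to 0.49. EXLB1, an expansin-like gene, was at 12.4, 14.96 and 16.1 CPM in WT, 3.56, 4.54 and 4.39 in lhp1, 9.18, 6.73 and 5.80 in ebs shl and 1.77, 3.70 and 1.32 in the labelled triple mutant. It fell in lhp1, in ebs shl and further in the labelled triple mutant, whose libraries overlapped those of lhp1, and its interaction was 0.08 ± 0.41 with an interval of -0.79 to 0.96.

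Polycomb components were mostly small in effect. Of 24 listed genes 21 were tested, with 4 higher (19%) and 6 lower (28.6%) interactions, beside 26.6% and 30.3% of all loci. Another 6 were additive, and the median was -0.19. The list includes the mutated genes, and LHP1 itself is among the 4 higher, at 1.04 (adjusted p = 2.72e-05). EMF1 (AT5G11530) was at 27.5, 28.7 and 27.7 CPM in WT, 45.5, 43.6 and 49.6 in lhp1, 121, 116 and 117 in ebs shl and 87.1, 73.9 and 71.8 in the labelled triple mutant. It rose in all mutants without overlap, and the triple level lay between lhp1 and ebs shl, under the product of 195 CPM and the linear sum of 136 CPM (interaction -1.33 ± 0.12, adjusted p = 2.73e-06). CLF, a histone methyltransferase of Polycomb complex 2, was at 32.2, 27.9 and 29.5 CPM in WT, 26.6, 29.1 and 29.6 in lhp1, 23.8, 27.2 and 25.5 in ebs shl and 11.3, 12.2 and 14.1 in the labelled triple mutant. CLF was lowest in the labelled triple mutant (interaction -0.94 ± 0.16, adjusted p = 0.000315), and it overlaps genes on the other strand. MEA, an endosperm counterpart of CLF, had a called interaction of 2.92 ± 1.19 (adjusted p = 0.049) that was lost in 12 of 18 settings. Of the VIM genes, which bind methylated DNA, 3 (50%) were lower and 1 (16.7%) higher of 6 tested of 6 listed (median -1.0). VIM4 was higher at 7.29 ± 1.75 (adjusted p = 0.003) on 1 count in lhp1. It has a near-identical copy, and its call was lost without WT 3, at an adjusted p of 0.0822.

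Photosynthesis genes had small interactions. Of 33 photosystem and light-harvesting genes, all tested, 14 (42.4%) had a higher interaction and 0 a lower one, beside 26.6% and 30.3% of all loci. The median was 0.34, 11 of the 14 were not sorted, and 12 members were additive. Median effects against WT were -0.30 in lhp1, -0.21 in ebs shl and -0.15 in the labelled triple mutant. In the labelled triple mutant 1 rose and 13 fell against WT, beside 34.6% and 35.7% of all loci. In emf1 18 rose and 2 fell, beside 30.7% and 33.9%. The 14 became 6 with upper-quartile scaling, 9 with an offset for GC content and length, and 9, 8, 9 and 9 without WT 2, lhp1 2, ebs shl 1 and ebs shl 3. LHB1B1, described above, was the highest, and 1 member alone had triple libraries above all 9 others. PSBR, a photosystem II subunit, was at 2290, 2640 and 2543 CPM in WT, 2276, 1953 and 2133 in lhp1, 2063, 2329 and 2426 in ebs shl and 3769, 3312 and 3451 in the labelled triple mutant, with the triple libraries above all others (interaction 0.86 ± 0.14, adjusted p = 0.000225), and it overlaps a tested gene on the other strand. Calvin cycle genes had 1 higher (6.25%) and 4 lower (25%) of 16 tested of 16 listed (median -0.10). The Rubisco small subunit gene RBCS2B was lowest at -1.22 ± 0.22 (adjusted p = 0.000447). Genes often used as references had 5 higher (45.5%) and 0 lower of 11 tested of 12 listed (median 0.31), and with upper-quartile scaling 3 were lower. ACT8 (1.48 ± 0.17, adjusted p = 1.5e-05), UBQ10 (1.06 ± 0.16, adjusted p = 0.000114) and ACT2 (1.03 ± 0.14, adjusted p = 5.66e-05) were the higher ones of largest size, while ACT7 was at -0.10 ± 0.10 (adjusted p = 0.397).

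Seed genes could be tested only in part. Of 20 seed storage and late embryogenesis genes 8 were tested, with 2 higher (25%), 1 lower (12.5%) and 5 undetermined. Over all loci 26.6% were higher and 30.3% lower. In the labelled triple mutant 7 of the 8 rose against WT, beside 34.6% of all loci. The low-count filter keeps a locus that is high in 1 genotype alone, such as EM1, so that the filter can raise this share. Their summed level was 42.1 to 58.9 CPM for WT, 64.8 to 83.2 for lhp1, 91.3 to 100 for ebs shl, 210 to 261 for the labelled triple mutant and 71.4 to 97.6 for emf1. EM1, an embryo protein gene, had 0 counts in WT, 1 each in lhp1 and ebs shl and 84 in the labelled triple mutant, at least 37.5-fold higher than WT with the same floor. Its interaction could not be determined. Embryo regulators had 3 higher (33.3%) and 4 lower (44.4%) of 9 tested of 15 listed (median 0.23). AGL18 was at 2.42 ± 0.19 (adjusted p = 1.55e-06) after falls in both mutants, and BBM at -2.07 ± 0.75 (adjusted p = 0.0295), a call that 6 settings lost. Of 16 anther and tapetum genes 14 were found by symbol and 3 of these were at 0 in all 12 libraries. Only 2 were tested, and edgeR called 0 of them, with 0 at an unadjusted p under 0.05 and 0 by DESeq2. Their summed level was 9.43 to 12.5 CPM for WT and 12.9 to 14.8 for the labelled triple mutant.

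**Figure D5:**
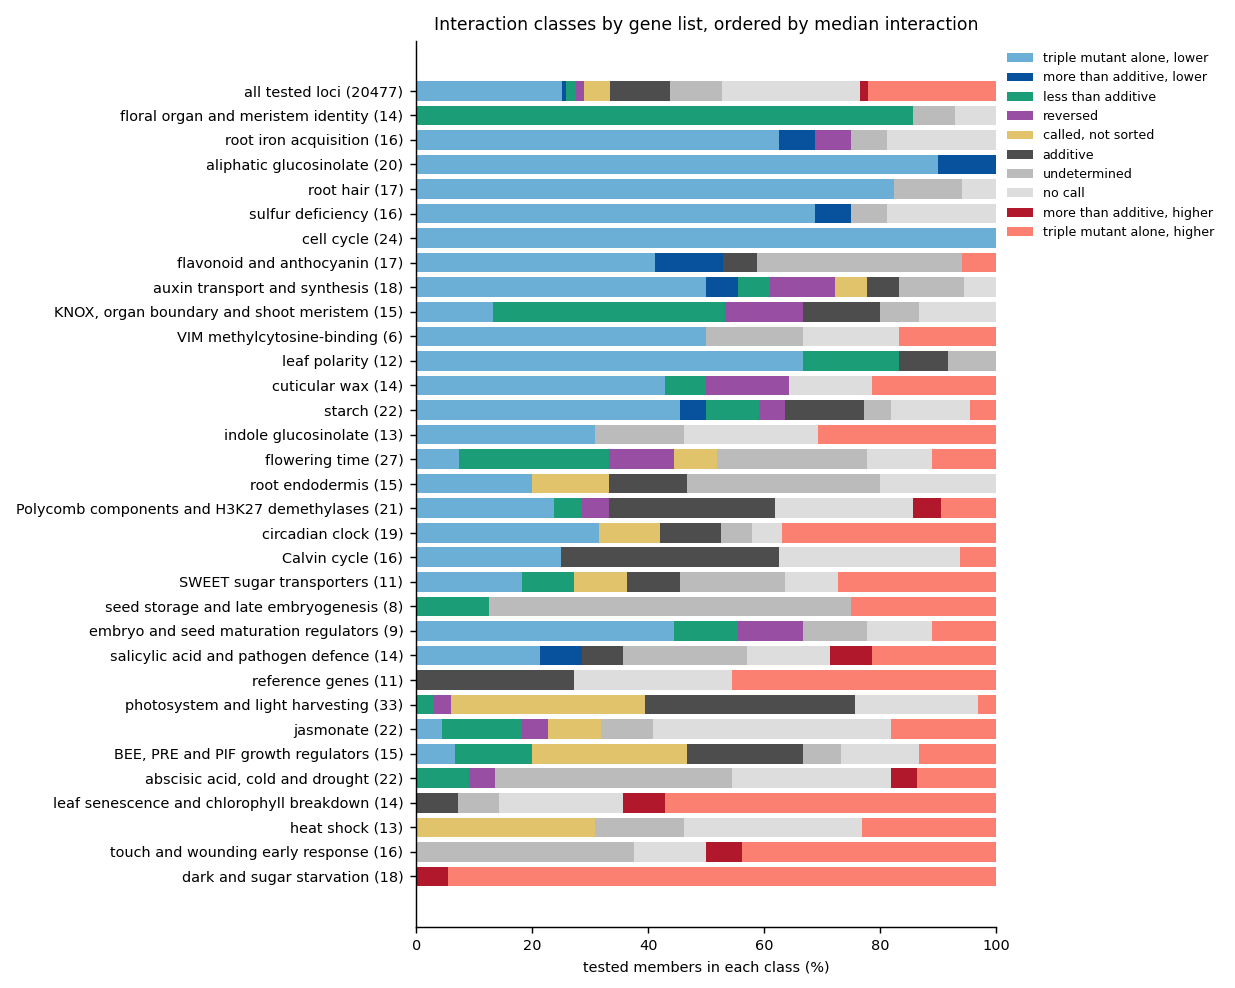
Share of tested members (percent, stacked bars) in each class for all 20477 loci and for 32 gene lists, with the number tested in brackets, ordered from the lowest to the highest median interaction. Floral identity genes are almost all less than additive (12 of 14), aliphatic glucosinolate and cell cycle genes are lower in the triple mutant alone or more than additive (20 of 20 and 24 of 24), and all 18 sugar starvation genes are higher.

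The classes differed in what kind of loci they held. Less than additive loci had a median level of 3.20 CPM in WT, against 13.7 over all loci, and more than additive loci of the lower direction one of 33.1. Among the 364 less than additive loci 256 had a triple level above WT and 108 below. Of the 256, 241 lay under the linear sum of both increments over WT, and 30 had a triple level above both mutants. In the 6825 loci with the lowest WT levels 48.6% of interactions were called, in the 6826 of middle levels 60.0% and in the 6826 of the highest levels 62.0%. Loci lower in the labelled triple mutant alone had a median exon length of 2034 bases, those higher alone 1643 bases and all loci 1776 bases. The emf1 libraries, which share the kit, had median effects against WT of -0.07 at less than additive and -0.51 at reversed loci, beside triple effects of 0.56 and -0.28. Of the lists, 13 had edgeR calls in 1 direction alone. In the other direction 12 of these had 0 members at an unadjusted p under 0.05 and 0 calls by DESeq2, and the reference genes had 1 lower member by each.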

How the data were processed

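Read counts per gene were deposited by the authors as raw whole-number counts for each library. Per the labels' protocols, KAPA stranded mRNA-seq libraries were sequenced on an Illumina HiSeq. The submitters' processing notes name TopHat2 2.1.1, HTSeq, edgeR and the TAIR10 build. Counter settings, the strand setting included, are not given in the sources used here. Gene symbols were matched to RefSeq's annotation. Its coordinates and sequences gave the exon lengths, the GC content, the overlaps on the other strand and the near-identical copies.

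Loci with low counts were removed with filterByExpr, which left 20477 of 33602, and each locus was fitted with edgeR 4.0.16 (glmQLFit and glmQLFTest, TMM factors, R 4.3.3) in all 15 libraries with 1 mean per genotype. The common biological coefficient of variation was 16.35%. Contrasts gave each mutant against WT, the labelled triple mutant against ebs shl and against lhp1, and the interaction. P-values were adjusted over all tested loci by Benjamini-Hochberg. SE is the absolute log2 value divided by the square root of F. Ratios of counts of 3 or fewer carry exact 95% intervals, and floors are 3 counts. These cover counting error only, since reads without molecular identifiers are not independent molecules. The labels call the libraries biological repeats, and p-values measure the spread between them.

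Named genes were LHP1, EBS, SHL and EMF1, the 8 highest and 8 lowest interactions, up to 4 per class and direction by the size of the triple effect, and up to 3 per gene list. Some genes beside these were named after their values were seen. The classes, gene lists and tests were chosen with earlier results of these data known. Alternatives were RLE and upper-quartile scaling, no low-count filter, the 12 libraries alone, DESeq2 1.42.0, a replicate block, an offset for GC content and length, an adjusted p under 0.01, a 1.5-fold additive band and leaving out each library. The contrast against lhp1 was added after seeing the data. The fit was tested on simulated data. Near-identical copies were found with BLAST 2.17.0 at 95% identity over 50% of the length.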

Additional observations from a re-analysis of the deposited data

Results flagged for a closer look

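These results are listed because the lhp1 effect differed between the WT and the ebs shl background by the test of the interaction itself. The kit differs between the same libraries, and its part in these values was not tested. The interaction was higher at 5447 loci and lower at 6198, and at 125 of these loci the lhp1 effects called in the 2 backgrounds had opposite signs.

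Among named genes, lhp1 raised the level in WT, and the labelled triple mutant was below ebs shl, for WSD1 (interaction -10.27), AP1 (-10.22), JAL23 (-9.92), SEP3 (-9.41), SEP1 (-7.92), FT (-6.51), BAM5 (-6.42), SPL5 (-6.10), HB-3 (-4.73) and EMF1 (-1.33). The reverse signs were found for YAB5 (4.13), BEE3 (3.82), AOC2 (3.54), CYP71B29 (3.04), AGL18 (2.42), GRP-3 (2.37), BEE1 (2.22) and LHB1B1 (2.15). The triple libraries 2 and 3 of FT held 0.190 and 0.264 CPM and library 1 held 1.77, and BAM5 had 1 triple library with nearly all its counts.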

How the results depend on the processing

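The interaction was called at 11645 loci, and at 11298 with a replicate block, of which 11173 are called without it. The same replicate numbers did not pair the samples: deviations correlated between -0.314 and 0.152 over 18 pairs, 2 of them over 0.1, and 0 of 12 libraries correlated best with their own number. No interaction of the 135 genes named by rule reversed in any refit of the data. Genes named beside these were not followed one by one in the refits. An offset for GC content and length gave 5770 higher and 5619 lower calls, so that higher calls were the more numerous there. Of 10310 loci called with and without it 10283 kept their direction. Upper-quartile scaling gave 4291 higher and 7385 lower calls. The cause of the changes below was not tested. More than additive loci lower than the sum were 229 with the 12 libraries alone and 252 with DESeq2. DESeq2 called 524 loci in lhp1. A 1.5-fold band left 1009 additive loci. At an adjusted p under 0.01 there were 110 more than additive loci higher and 23 lower, 201 less than additive and 108 reversed, among fewer calls by construction.

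Leaving out each library in turn gave 10647 to 11502 interaction calls, 5017 to 5498 higher and 5580 to 6168 lower, 144 to 327 calls for lhp1, 950 to 1751 for ebs shl, 13442 to 14402 in the labelled triple mutant against WT and 12790 to 13963 against ebs shl. Classes ranged from 4234 to 4578 higher and 4560 to 5063 lower in the triple mutant alone, 148 to 324 more than additive higher and 48 to 178 lower, 261 to 377 less than additive, 138 to 315 reversed and 1879 to 2267 additive. Sorted loci ranged from 9660 to 10588, and members of the lists with a called interaction, sorted or not, from 314 to 346.

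Counts per list stayed within 1.5 times in 1195 of 1254 cases. Of 125 named genes with a called interaction 114 kept the call in every alternative, and the others were BBM, CUC1, CYP81F2, FMO1, LDOX, MCT1, MEA, ORTHL, RAB18, SWEET10 and VIM4. Depth limits loci at 3 counts or fewer in a genotype, whose fitted fold changes depend on the prior count.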
